A study of Mus musculus with 12 samples.

Results

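Car8 was followed together with 9 genes that release, refill or top up the calcium store of the endoplasmic reticulum (ER) in mouse pancreatic islets: Itpr1, Itpr2, Itpr3, Ryr2, Atp2a2, Atp2a3, Stim1, Stim2 and Orai1. Each of these 10 genes was taken from the probe set whose symbol in the array annotation is that gene alone, and 9 of the 10 had exactly 1 such probe set, out of 19938 genes that have such a probe set and 35511 probe sets in all. Itpr1 had no such probe set and was not analysed here, so its level in these islets is not known. Islets were isolated from adult 129Sv mice of 4 groups, with 3 Affymetrix MoGene_1.0_ST arrays per group and 12 in all: Prlr-/- on pregnancy day 9.5 (P9.5), Prlr+/+ at P9.5, Prlr-/- non-pregnant (NP) and Prlr+/+ NP. Prlr-/- mice lack the prolactin receptor in every tissue, and the pregnant ones carried a progesterone pellet that no other group received, so genotype and pellet cannot be told apart at P9.5. Prlr was not analysed here, so the knockout itself was not checked. Values are log2 expression levels from robust multichip analysis, deposited in steps of 0.1, and differences are log2 fold changes.

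The ER of a beta cell holds a calcium store that is emptied through IP3 receptors and ryanodine receptors, refilled by SERCA pumps, and topped up from outside the cell when the ER sensors STIM1 and STIM2 open ORAI channels of the plasma membrane. Beta cells use this calcium for insulin secretion and for protein folding in the ER. Car8 encodes a carbonic anhydrase-related protein that has lost the enzyme activity of its family and binds the type 1 IP3 receptor, the product of Itpr1, lowering its affinity for IP3.

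The sequence that identifies Car8 in this study is that of its quantitative RT-PCR assay, shown because the assay was designed for the member with the largest change; no value below comes from it. The 3 oligos, 5′ to 3′ and with no part marked in capitals, were as follows.
Car8 forward primer: aggatattcaatataagggaa
Car8 probe: taatcctaacactttattaccagaccctct
Car8 reverse primer: cttcatagacccagtaat

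The prolactin receptor signals through STAT factors, whose core consensus is TTCNNNGAA (a palindrome, so both strands give the same matches). RefSeq promoter windows (GRCm38.p6, 250 bases before to 50 after the start) were held here for 7 of the 10 genes, those of Itpr2, Itpr3, Ryr2, Atp2a3, Stim1, Stim2 and Orai1. The consensus was found in 1 of these 7 windows, that of Orai1, and in 2726 of 32851 windows of the same length (8.3%). The Orai1 window is shown for this match, which is in capitals, and the Atp2a3 window because Atp2a3 was the one gene beside Car8 to pass the test for pregnancy; it holds no match and no capitals. The Orai1 window is chr5:123014824-123015123 on the plus strand and the Atp2a3 window chr11:72960919-72961218 on the plus strand.
Orai1: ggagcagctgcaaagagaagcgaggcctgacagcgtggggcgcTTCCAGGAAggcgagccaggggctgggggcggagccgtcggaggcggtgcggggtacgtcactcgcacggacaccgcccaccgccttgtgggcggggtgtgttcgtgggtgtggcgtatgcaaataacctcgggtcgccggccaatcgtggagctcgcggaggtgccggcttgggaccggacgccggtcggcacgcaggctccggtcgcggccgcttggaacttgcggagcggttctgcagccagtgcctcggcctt
Atp2a3: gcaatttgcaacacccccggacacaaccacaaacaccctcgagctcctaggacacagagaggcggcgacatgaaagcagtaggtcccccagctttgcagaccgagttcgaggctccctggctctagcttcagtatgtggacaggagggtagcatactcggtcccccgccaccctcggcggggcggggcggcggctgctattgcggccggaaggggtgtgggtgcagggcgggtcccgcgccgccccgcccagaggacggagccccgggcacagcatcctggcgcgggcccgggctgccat

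The arrays of one stage correlated at 0.972 to 0.988 across probe sets and those of different stages at 0.931 to 0.969, and array medians lay between 5.7 and 5.9. The labelled tissue was borne out by beta cell markers, of which 9 of 10 were measured: the lowest of them averaged 8 or more in each group, and their mean lay between 10.6 and 10.9 in all arrays. In Prlr+/+ P9.5 replicate 2, Xist was at 3.8, against 10 to 10.7 in the other 11 arrays, while the Y-linked Kdm5d (4.2), Uty (3.7) and Eif2s3y (3.4) lay within the range of the other arrays, 4.1 to 4.6 for Kdm5d, 3.3 to 3.8 for Uty and 3.1 to 3.7 for Eif2s3y. Without this array 1 of the 70 log2 fold changes tested again gained its call (Stim1 with pregnancy in Prlr+/+ mice) and 1 lost it (Esyt1, at P9.5), and values without it are given for the main results below. The labels call the arrays biological replicates. One model was fitted to all probe sets with limma, and a probe set was called at a fold change of at least 1.5 with a Benjamini-Hochberg adjusted p under 0.05 over all 35511 probe sets; every adjusted p below is from this fit. RNA of whole islets was measured, so fewer cells of a type and less RNA per cell cannot be told apart.

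Car8 was the member with the largest differences between the groups. It was at 7.3, 7.3 and 7.1 in the Prlr-/- P9.5 arrays, against 9.2, 8.5 and 8.8 in the Prlr+/+ P9.5 arrays. In non-pregnant mice it was at 6.6, 6.6 and 6.8 in Prlr-/- islets, against 6.8, 6.6 and 6.4 in Prlr+/+ islets. The Prlr+/+ P9.5 arrays were the highest, the Prlr-/- P9.5 arrays came next, and both non-pregnant groups lay below these and overlapped with each other. The gap between the lowest Prlr+/+ P9.5 array and the highest Prlr-/- P9.5 array was 1.2 log2 units, and that between the lowest Prlr+/+ P9.5 array and the highest Prlr+/+ NP array was 1.7.

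**Figure D1:**
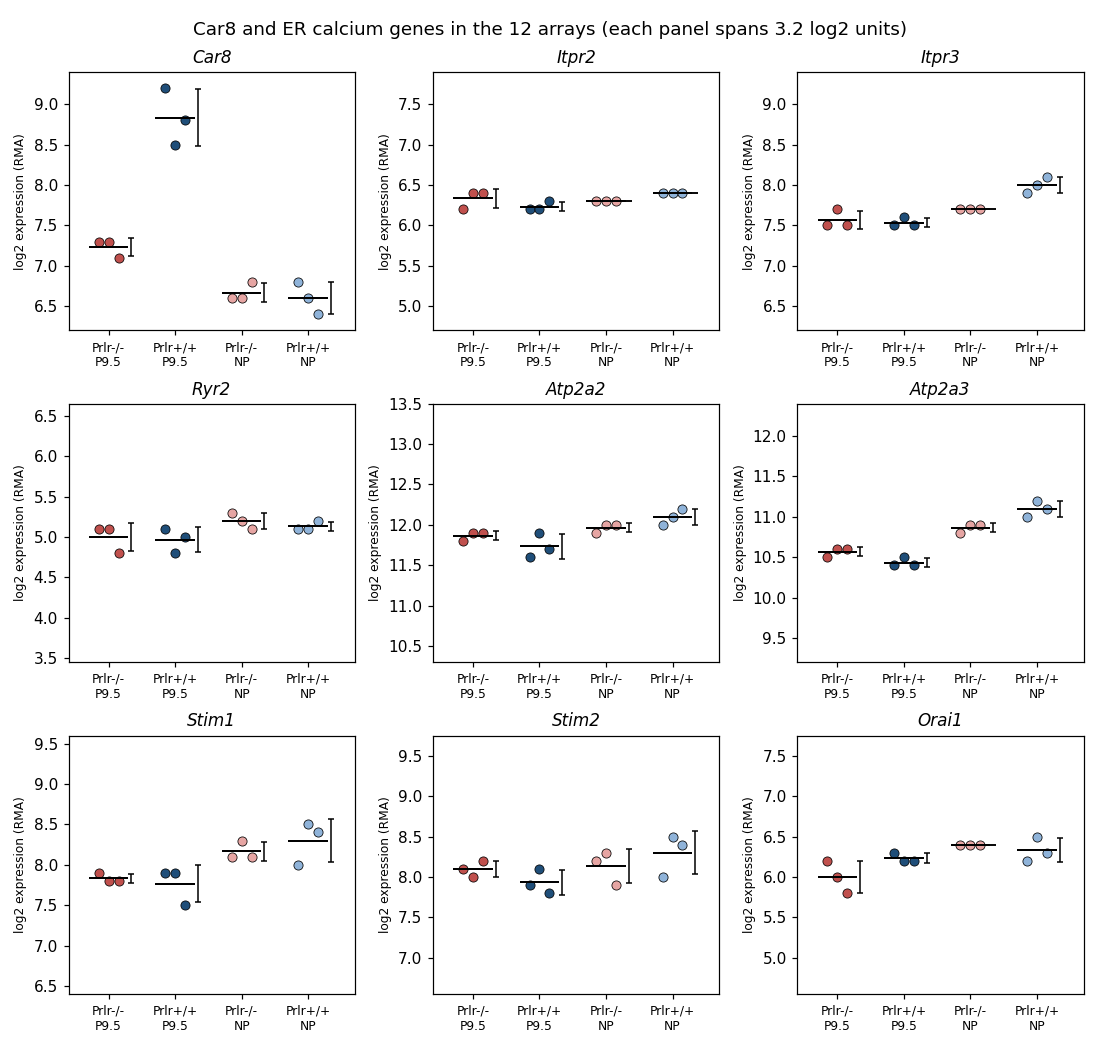
Log2 expression of the 9 measured genes (y axis, 3.2 log2 units in each panel) in Prlr-/- P9.5, Prlr+/+ P9.5, Prlr-/- NP and Prlr+/+ NP islets (x axis). Points are arrays, horizontal lines group means and vertical bars the SD (n = 3); Car8 stands alone in having its Prlr+/+ P9.5 arrays, at 8.5 to 9.2, above all other arrays.

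At P9.5, Car8 averaged 7.23 ± 0.12 in Prlr-/- islets and 8.83 ± 0.35 in Prlr+/+ islets (SD, n = 3 each). This is a log2 fold change of -1.60 (3.03-fold lower, 95% interval -1.96 to -1.24, adjusted p = 0.00117 from limma), and without Prlr+/+ P9.5 replicate 2 it was -1.77 (adjusted p = 0.000771 from limma). None of the other 8 genes was called in this comparison: their log2 fold changes lay between -0.23 and 0.17, their lowest adjusted p from limma was 0.955, and 0 of them had an unadjusted p under 0.05. The count of members called lower was thus 1 of 9, where 0.206% of all probe sets were called lower (0.231% in either direction). Car8 was also the one member whose P9.5 groups did not overlap, against 6.08% of all probe sets.

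In Prlr+/+ mice, Car8 was 4.70-fold higher at P9.5 than in NP islets, a log2 fold change of 2.23 (95% interval 1.87 to 2.59, adjusted p = 4.52e-05 from limma), and without Prlr+/+ P9.5 replicate 2 the value was 2.40 (adjusted p = 8.73e-05 from limma). In Prlr-/- mice the difference between P9.5 and NP islets was 0.57 (1.48-fold, 95% interval 0.21 to 0.93, adjusted p = 0.0212 from limma), just under the fold change minimum. The groups did not overlap, with P9.5 higher, as was so for 19.4% of all probe sets. The pregnancy effect on Car8 in Prlr-/- islets minus that in Prlr+/+ islets was -1.67 (SE 0.232, 95% interval -2.17 to -1.16, adjusted p = 0.0241 from limma), where 0.0788% of all probe sets were called in this interaction, all of them lower. That call is near its threshold: leaving out any one of 8 of the 12 arrays raised its adjusted p above 0.05, to at most 0.0869, whereas without Prlr+/+ P9.5 replicate 2 it was -1.83 (adjusted p = 0.0106 from limma). In non-pregnant mice Car8 differed by 0.07 between Prlr-/- and Prlr+/+ islets (95% interval -0.29 to 0.43, adjusted p = 0.92 from limma), and 0 of the 9 genes was called there, where 0.101% of all probe sets were; at an unadjusted p under 0.05, 2 of them, Itpr3 and Atp2a3, were lower in Prlr-/- islets.

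Of the genes for receptors through which IP3 empties the store, Itpr2 and Itpr3 were measured here and Itpr1 was not. Itpr2 was at 6.2, 6.4 and 6.4 in the Prlr-/- P9.5 arrays, against 6.2, 6.2 and 6.3 in the Prlr+/+ P9.5 arrays. Its NP arrays were all at 6.3 in Prlr-/- and all at 6.4 in Prlr+/+ islets. Itpr2 thus stayed within 0.2 log2 units over all 12 arrays, which is 2 of the steps to which the values are rounded. Its log2 fold change with pregnancy was 0.03 in Prlr-/- mice (adjusted p = 0.786 from limma) and -0.17 in Prlr+/+ mice (adjusted p = 0.178 from limma).

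Itpr3 was at 7.5, 7.7 and 7.5 in the Prlr-/- P9.5 arrays, against 7.5, 7.6 and 7.5 in the Prlr+/+ P9.5 arrays. In NP islets it was at 7.7 in all 3 Prlr-/- arrays, against 7.9, 8 and 8.1 in the Prlr+/+ arrays. The Prlr+/+ NP arrays were the highest and overlapped with no other group, while both P9.5 groups covered nearly the same values. The pregnancy difference was -0.47 in Prlr+/+ mice (1.38-fold lower, 95% interval -0.67 to -0.27, adjusted p = 0.0043 from limma), below the fold change minimum, and -0.13 in Prlr-/- mice (adjusted p = 0.274 from limma). The difference between these effects was 0.33 (95% interval 0.05 to 0.61, adjusted p = 0.43 from limma), and the NP difference between Prlr-/- and Prlr+/+ islets was -0.30 (adjusted p = 0.227 from limma).

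The change of Car8 was set against those of Itpr2 and Itpr3 within each array, since the type 1 receptor that Car8 binds was not analysed. Car8 minus Itpr2 was 1.1, 0.9 and 0.7 in the Prlr-/- P9.5 arrays, against 3, 2.3 and 2.5 in the Prlr+/+ P9.5 arrays, and it was 0.3, 0.3 and 0.5 in the Prlr-/- NP arrays, against 0.4, 0.2 and 0 in the Prlr+/+ NP arrays. The zero point of such a difference depends on both probe sets and has no meaning of its own, so its shifts between groups are what can be read. With pregnancy Car8 moved 0.53 log2 units more than Itpr2 in Prlr-/- mice and 2.40 more in Prlr+/+ mice, and at P9.5 the Prlr-/- islets differed from the Prlr+/+ islets in Car8 minus Itpr2 by -1.70. Without Prlr+/+ P9.5 replicate 2 the last 2 of these values were 2.55 and -1.85.

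Relative to Itpr3, Car8 was at -0.2, -0.4 and -0.4 in the Prlr-/- P9.5 arrays, against 1.7, 0.9 and 1.3 in the Prlr+/+ P9.5 arrays. In NP islets Car8 minus Itpr3 was -1.1, -1.1 and -0.9 in the Prlr-/- arrays, against -1.1, -1.4 and -1.7 in the Prlr+/+ arrays. The NP groups touched at -1.1, and the P9.5 groups stood apart from them and from each other. The shift with pregnancy was 0.70 in Prlr-/- mice and 2.70 in Prlr+/+ mice, and at P9.5 the Prlr-/- islets differed from the Prlr+/+ islets by -1.63, and without Prlr+/+ P9.5 replicate 2 the last 2 of these values were 2.90 and -1.83. In the 8 comparisons of Car8 with these receptors, the exact two-sided permutation test of 3 arrays against 3 gave p = 0.1 for the 6 with non-overlapping groups, which is the smallest p this design allows (0.133 after Benjamini-Hochberg adjustment over the 8), and p = 0.4 for Itpr2 and 0.3 for Itpr3 in NP islets (0.4 and 0.343 after adjustment).

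**Figure D2:**
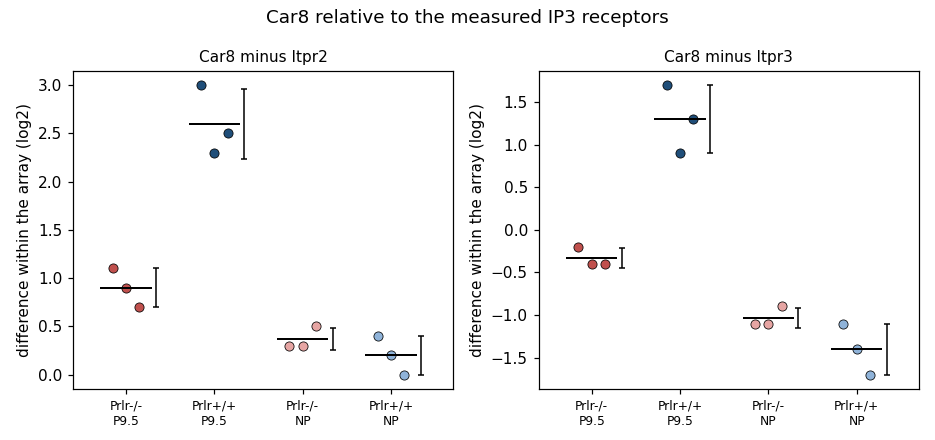
Car8 minus Itpr2 (left) and Car8 minus Itpr3 (right) within each array, in log2 units (y axis), for the 4 groups (x axis). Points are arrays, horizontal lines means and vertical bars the SD (n = 3); in both panels the Prlr-/- P9.5 arrays lie between the Prlr+/+ P9.5 arrays and the NP arrays.

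Ryr2, the ryanodine receptor and second release channel in this group of genes, was at 5.1, 5.1 and 4.8 in the Prlr-/- P9.5 arrays, against 5.1, 4.8 and 5 in the Prlr+/+ P9.5 arrays. It was at 5.3, 5.2 and 5.1 in the Prlr-/- NP arrays, against 5.1, 5.1 and 5.2 in the Prlr+/+ NP arrays. All 4 groups overlapped or touched, and no comparison of Ryr2 was called (log2 fold changes of -0.20 with pregnancy in Prlr-/- and -0.17 in Prlr+/+ mice). Ryr2 was the one member among the dimmest 40% of probe sets (mean log2 value below 5.35), where a change would be harder to see.

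The SERCA pumps, which return calcium to the store, were lower in Prlr+/+ islets at P9.5 than in NP islets, but only Atp2a3 passed the fold change minimum. Atp2a3 encodes SERCA3 and was at 10.5, 10.6 and 10.6 in the Prlr-/- P9.5 arrays, against 10.4, 10.5 and 10.4 in the Prlr+/+ P9.5 arrays. In NP islets it was at 10.8, 10.9 and 10.9 in the Prlr-/- arrays, against 11, 11.2 and 11.1 in the Prlr+/+ arrays. Every P9.5 array was below every NP array, and the Prlr+/+ NP arrays were above the Prlr-/- NP arrays. With pregnancy Atp2a3 fell by 0.67 on the log2 scale in Prlr+/+ mice (1.59-fold lower, SE 0.0864, adjusted p = 0.000651 from limma), and without Prlr+/+ P9.5 replicate 2 the value was -0.70 (adjusted p = 0.00304 from limma).

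In Prlr-/- mice the pregnancy difference of Atp2a3 was -0.30 (1.23-fold lower, 95% interval -0.49 to -0.11, adjusted p = 0.0205 from limma), below the fold change minimum. The effect in Prlr-/- minus that in Prlr+/+ mice was 0.37 (95% interval 0.10 to 0.63, adjusted p = 0.362 from limma), so a difference between the genotypes did not pass the correction. At P9.5, Atp2a3 differed by 0.13 between Prlr-/- and Prlr+/+ islets (95% interval -0.06 to 0.32, adjusted p = 0.977 from limma), and in NP islets by -0.23 (adjusted p = 0.3 from limma).

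Atp2a2, which encodes the widely expressed pump SERCA2, was at 11.8, 11.9 and 11.9 in the Prlr-/- P9.5 arrays, against 11.6, 11.9 and 11.7 in the Prlr+/+ P9.5 arrays. It was at 11.9, 12 and 12 in the Prlr-/- NP arrays, against 12, 12.1 and 12.2 in the Prlr+/+ NP arrays. The Prlr+/+ groups stood 0.1 apart and the Prlr-/- groups touched. The pregnancy difference was -0.10 in Prlr-/- mice (adjusted p = 0.454 from limma) and -0.37 in Prlr+/+ mice (1.29-fold lower, adjusted p = 0.0214 from limma), the second of these below the fold change minimum.

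Of the genes for store-operated entry, Stim1, the main ER calcium sensor, was at 7.9, 7.8 and 7.8 in the Prlr-/- P9.5 arrays, against 7.9, 7.9 and 7.5 in the Prlr+/+ P9.5 arrays. It was at 8.1, 8.3 and 8.1 in the Prlr-/- NP arrays, against 8, 8.5 and 8.4 in the Prlr+/+ NP arrays. In each genotype all P9.5 arrays were below all NP arrays. The difference was -0.33 in Prlr-/- mice (adjusted p = 0.0976 from limma) and -0.53 in Prlr+/+ mice (1.45-fold lower, adjusted p = 0.0227 from limma), and neither was called. The Prlr+/+ difference lay near both thresholds. It was called without Prlr+/+ P9.5 replicate 2 (-0.60, adjusted p = 0.0355 from limma) or replicate 1 (-0.60), without Prlr+/+ NP replicate 1 (-0.68, adjusted p = 0.00564 from limma) and after quantile normalization (-0.62, adjusted p = 0.0089 from limma), whereas its adjusted p was over 0.05 in 5 of the 23 alternatives, at most 0.0893.

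Stim2, the sensor that responds to smaller losses from the store, was at 8.1, 8 and 8.2 in the Prlr-/- P9.5 arrays, against 7.9, 8.1 and 7.8 in the Prlr+/+ P9.5 arrays. It was at 8.2, 8.3 and 7.9 in the Prlr-/- NP arrays, against 8, 8.5 and 8.4 in the Prlr+/+ NP arrays. All these groups overlapped, with a pregnancy difference of -0.03 in Prlr-/- mice (adjusted p = 0.87 from limma) and -0.37 in Prlr+/+ mice (adjusted p = 0.0984 from limma).

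Orai1, the entry channel of the plasma membrane that STIM proteins open, was at 6.2, 6 and 5.8 in the Prlr-/- P9.5 arrays, against 6.3, 6.2 and 6.2 in the Prlr+/+ P9.5 arrays. It was at 6.4 in all 3 Prlr-/- NP arrays, against 6.2, 6.5 and 6.3 in the Prlr+/+ NP arrays. Here the Prlr-/- groups stood apart and the Prlr+/+ groups overlapped. The pregnancy difference was -0.40 in Prlr-/- mice (1.32-fold lower, adjusted p = 0.0191 from limma), below the fold change minimum, and -0.10 in Prlr+/+ mice (adjusted p = 0.559 from limma), and the difference between these effects was -0.30 (95% interval -0.65 to 0.05, adjusted p = 0.569 from limma).

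**Figure D3:**
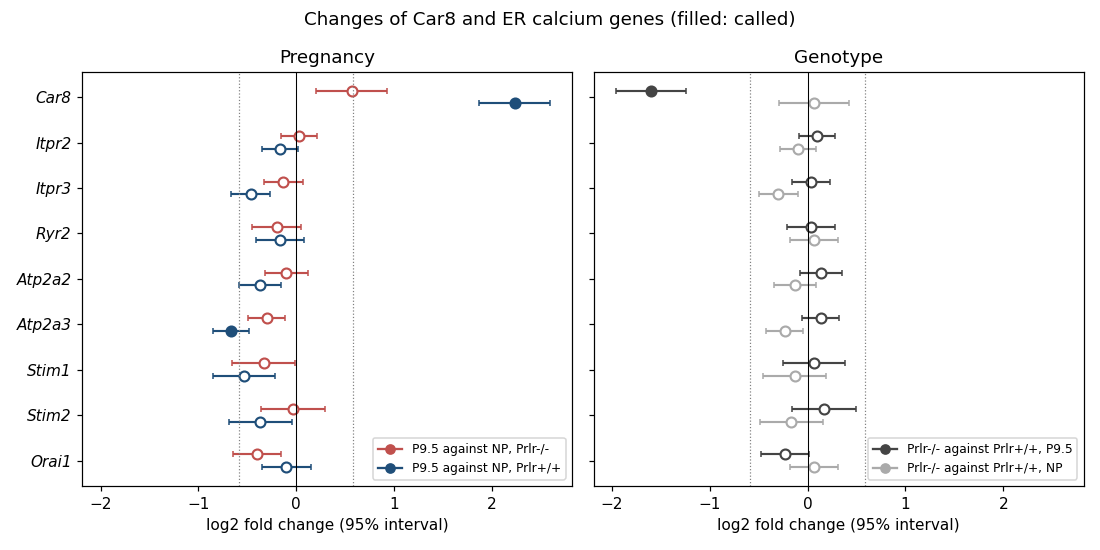
Log2 fold changes of the 9 genes (x axis, bars are 95% intervals of the limma fit) for pregnancy in each genotype (left) and for Prlr-/- against Prlr+/+ islets at each stage (right). Filled points were called, dotted lines mark the 1.5-fold minimum; Car8 is filled at 2.23 and -1.60, and Atp2a3 at -0.67.

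Over the whole group of genes, pregnancy in Prlr+/+ mice came with Car8 called higher and Atp2a3 called lower, 2 of 9 genes, where 9.93% of all probe sets were called (5.73% higher and 4.21% lower). All 8 genes other than Car8 had a log2 fold change below 0, between -0.67 and -0.10 with a median of -0.37, beside 54.8% of all probe sets below 0 and a median of -0.07 for all probe sets; the sign of all 8 was the same after median centring and after quantile normalization. By the adjusted p alone, 4 of the 9 (Itpr3, Atp2a2, Atp2a3 and Stim1) were lower and Car8 higher, where 21.8% of all probe sets passed in either direction and 10.3% of all probe sets passed as lower. Without Prlr+/+ P9.5 replicate 2, 3 of the 9 were called, and the 6 that were not had values of -0.15 (Itpr2), -0.50 (Itpr3), -0.083 (Ryr2), -0.45 (Atp2a2), -0.45 (Stim2) and -0.083 (Orai1). Values of the NP and P9.5 groups did not overlap in 6 of the 9 genes, against 32.4% of all probe sets.

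In pregnant Prlr-/- mice, 0 of the 9 genes were called by limma against NP, where 14.5% of all probe sets were, and at an unadjusted p under 0.05 Car8 was higher and 3 genes were lower. By the adjusted p alone, Car8 was higher and Atp2a3 and Orai1 were lower, where 33.4% of all probe sets passed. The groups did not overlap in 4 of the 9 genes, near the share of all probe sets (41.8%). Without Car8, 7 of 8 log2 fold changes were below 0 with a median of -0.17 (54.4% of all probe sets were below 0), and with arrays centred on their medians, which moved the median of all probe sets in this comparison by 0.17, Itpr3 (0.03), Atp2a2 (0.07) and Stim2 (0.13) were above 0. The interaction of the 8 genes other than Car8 lay between -0.30 and 0.37, above 0 in 6 of 8 (49.4% of all probe sets were below 0), and none was called; 2 of them, Itpr3 and Atp2a3, had an unadjusted p under 0.05. The pregnancy comparisons of the genotypes share no arrays with each other, while each shares 3 arrays with each comparison between genotypes.

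Markers of the digestive acinar cells that surround islets were lower at P9.5 than in NP islets of Prlr-/- mice. Of 17 acinar markers 15 were measured, and their mean level per array was 8.89 to 10.4 in Prlr-/- P9.5, 9.29 to 10.4 in Prlr+/+ P9.5, 10.3 to 11.1 in Prlr-/- NP and 9.91 to 10.5 in Prlr+/+ NP islets. With pregnancy 9 of the 15 were called lower and 1 higher in Prlr-/- mice (median -1.27), where 7.09% of all probe sets were called lower and 7.44% higher. In Prlr+/+ mice 0 were called lower and 1 higher (median -0.53), where 4.21% of all probe sets were called lower and 5.73% higher. Between the genotypes at P9.5, limma called 0 of the 15, and 0 passed an unadjusted p of 0.05 (median -0.17). Of 6 endothelial markers, all measured, 2 were called higher with pregnancy in Prlr-/- mice (median 0.45), against 1 higher and 1 lower in Prlr+/+ mice (median -0.017); their mean level per array was 8.20 to 8.27 in Prlr-/- P9.5, 7.98 to 8.30 in Prlr+/+ P9.5, 7.78 to 7.85 in Prlr-/- NP and 8.02 to 8.13 in Prlr+/+ NP islets. In the interaction limma called 0 of these 6, with 4 above 0 at an unadjusted p under 0.05 (median 0.50). Of the 9 measured beta cell markers, 1 was called higher and 2 lower with pregnancy in Prlr+/+ mice (median 0.033). In Prlr-/- mice 1 of these 9 was called higher (median -0.067). In Prlr+/+ mice 1 of 4 measured ductal markers and 1 of 6 immune markers were also called lower. Between the genotypes at P9.5, limma called no marker of these cell types. At an unadjusted limma p under 0.05, 1 beta cell marker was lower in Prlr-/- islets there, and 1 ductal and 1 endothelial marker were higher. The part of any of these cell types in the values of the calcium genes was not tested.

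Beyond the 9 genes, 139 measured genes of 9 related lists were read from the same fit. In the P9.5 comparison of Prlr-/- with Prlr+/+ islets 1 of the 139 was called by limma, where 0.231% of all probe sets were. In the NP comparison 0 were called, where 0.101% were, and in the interaction 0, where 0.0788% were. At an unadjusted limma p under 0.05, 5 were higher and 6 lower at P9.5. In NP islets 5 were higher and 22 lower, and in the interaction 16 were higher and 5 lower. The share of all probe sets at this unadjusted p was not computed, so no direction is read from these counts. With pregnancy 8 of the 139 were called higher (5.76%) and 5 lower (3.60%) in Prlr-/- mice, below the 7.44% and 7.09% of all probe sets. In Prlr+/+ mice 9 were called higher (6.47%) and 2 lower (1.44%), near the 5.73% of all probe sets called higher and below the 4.21% called lower. All probe sets include dim ones and ones that name no gene. Of probe sets above the dimmest 40%, 10.7% were called higher and 6.56% lower in Prlr-/- mice. In Prlr+/+ mice these shares were 8.35% and 4.7%. The 139 genes were not filtered by brightness. The counts of single lists that follow stand beside these shares. The P9.5 call was Esyt1, a tether between the ER and the plasma membrane, at 8.4 to 8.6 in Prlr-/- islets, against 9.1 in all 3 Prlr+/+ arrays. Its log2 fold change was -0.60 (adjusted p = 0.0272 from limma), and it lost the call when any one of the 6 P9.5 arrays was left out (adjusted p between 0.0548 and 0.164). Esyt1 was lower in Prlr-/- islets before pregnancy too, at 8.6 to 8.8 against 8.9 to 9.1 (-0.37, adjusted p = 0.181 from limma). Its interaction was -0.23 (adjusted p = 0.61 from limma), so the P9.5 difference was not shown to depend on pregnancy.

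Of the 15 other carbonic anhydrases and related proteins, 1 was called in each genotype with pregnancy. Car5b, a mitochondrial carbonic anhydrase, was at 4.9 to 5.5 in Prlr-/- P9.5, 6 to 6.5 in Prlr+/+ P9.5, 4.7 to 5 in Prlr-/- NP and 4.9 to 5.2 in Prlr+/+ NP islets. Like Car8 it was highest in Prlr+/+ islets at P9.5, with a pregnancy difference of 1.10 in Prlr+/+ mice (2.14-fold higher, adjusted p = 0.0018 from limma) and 0.40 in Prlr-/- mice (adjusted p = 0.104 from limma). At P9.5 the Car5b groups of the genotypes did not overlap, with a log2 fold change of -0.90 that missed the threshold after adjustment (adjusted p = 0.0945 from limma), and its interaction was -0.70 (adjusted p = 0.402 from limma). Car1, a cytosolic enzyme, was lower with pregnancy by a log2 fold change of -0.63 in Prlr-/- mice (adjusted p = 0.00308 from limma) and -0.47 in Prlr+/+ mice (adjusted p = 0.0203 from limma, below the fold change minimum). Both Car5b and Car1 were among the dimmest 40% of probe sets.

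Among IP3 receptor partners, 19 of 22 listed genes were measured, and 3 were called higher with pregnancy in Prlr+/+ mice, where 5.73% of all probe sets were. These were Rnf170 (0.67) and Erlin1 (0.63), which belong to the machinery that degrades activated IP3 receptors, and Calm2 (0.63), a calmodulin gene. Rnf170 and Calm2 were also called higher in Prlr-/- mice (0.87 and 0.73), where Erlin1 was at 0.47 (adjusted p = 0.0361 from limma, below the fold change minimum). Itpripl1, which encodes a protein related to an IP3 receptor interactor, was called lower in Prlr-/- mice (-0.63, against -0.13 in Prlr+/+ mice), and the difference between these effects was not called (-0.50, adjusted p = 0.34 from limma).

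Of the genes that make or break down IP3, 26 of 27 were measured, and 2 were called higher with pregnancy in each genotype and none lower, near the share of all probe sets called higher (7.44% in Prlr-/- and 5.73% in Prlr+/+ mice). Chrm3, the muscarinic M3 receptor through which acetylcholine raises IP3 in beta cells, was at 8.2 to 8.3 in Prlr-/- P9.5, 8.5 to 8.7 in Prlr+/+ P9.5, 7.6 to 7.8 in Prlr-/- NP and 7.6 to 7.8 in Prlr+/+ NP islets. Its pregnancy difference was 0.57 in Prlr-/- mice (1.48-fold, adjusted p = 0.00127 from limma), just under the fold change minimum, and 0.90 in Prlr+/+ mice (1.87-fold, adjusted p = 0.000331 from limma), with an interaction of -0.33 (adjusted p = 0.443 from limma). Impa1, an inositol monophosphatase that recycles inositol, was called higher in both (0.83 in Prlr-/- and 0.63 in Prlr+/+ mice). Plch1, a phospholipase C, was called higher in Prlr-/- mice (0.67, against 0.07 in Prlr+/+ mice; interaction 0.60, adjusted p = 0.31 from limma).

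In the list of ER leak and luminal calcium-binding genes, 16 of 17 were measured, and the same 3 genes were called higher with pregnancy in both genotypes, where 7.44% of all probe sets were in Prlr-/- and 5.73% in Prlr+/+ mice. They were Calu, the luminal calcium-binding protein calumenin (0.80 in Prlr-/- and 0.67 in Prlr+/+ mice), Tmco1, an ER calcium leak channel (0.60 in each), and Tmx1, an ER membrane thioredoxin (0.60 in each). After quantile normalization Tmco1 and Tmx1 lost the call in both genotypes, and so did Calu, Calm2 and Impa1 in Prlr+/+ mice. Selenon, a redox regulator of SERCA pumps, was called lower in Prlr+/+ mice (-0.63, against -0.37 in Prlr-/- mice). The list's median was 0.30 in Prlr-/- and 0.22 in Prlr+/+ mice, beside -0.07 for all probe sets in each genotype.

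Among 13 of 14 store-operated entry genes, Saraf, an inhibitor of this entry, was called higher in Prlr-/- mice (0.67, against 0.47 in Prlr+/+ mice) and Cracr2a, a regulator of ORAI channels, lower (-0.60, against -0.40 in Prlr+/+ mice), where 7.44% of all probe sets were called higher and 7.09% lower in Prlr-/- mice. Of 11 ryanodine receptor genes and regulators, Trdn, the triadin gene (-0.67), and Jph3, a junctophilin gene (-0.60), were called lower with pregnancy in Prlr-/- mice. In Prlr+/+ mice Trdn was at -0.17 and Jph3 at -0.47, and 7.09% of all probe sets were called lower in Prlr-/- mice. Trdn averaged 6.27 in both P9.5 groups, while its NP arrays were at 6.9 to 7 in Prlr-/- and 6.3 to 6.6 in Prlr+/+ islets. The interaction was -0.50 for Trdn (adjusted p = 0.335 from limma) and -0.13 for Jph3 (adjusted p = 0.815 from limma). After median centring Cracr2a, Trdn, Jph3, Itpripl1 and Car1 lost the call in Prlr-/- mice and Selenon in Prlr+/+ mice. Quantile normalization ended the calls of Saraf, Cracr2a and Car1 in Prlr-/- mice. Of 23 measured genes for calcium entry and extrusion at the plasma membrane, Atp2b2, a plasma membrane calcium pump, was called lower in Prlr+/+ mice (-0.63, against -0.37 in Prlr-/- mice), a call that median centring also ended. In the 8 measured pumps of the ER and Golgi and SERCA regulators the largest difference was Atp2c2, a Golgi pump, at -0.40 in Prlr-/- mice (adjusted p = 0.108 from limma), and in the 8 measured genes of mitochondrial uptake it was Mcur1, a regulator of the uniporter, with an interaction of 0.73 (adjusted p = 0.185 from limma).

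Several calls in these lists lay near the fold change minimum and rested on 1 array. In Prlr-/- mice, Itpripl1, Cracr2a and Tmx1 lost the call without NP replicate 1, Car1 and Jph3 without NP replicate 3, Car1, Jph3, Cracr2a, Tmco1 and Tmx1 without P9.5 replicate 1, and Itpripl1 and Cracr2a without P9.5 replicate 3, with values then between 0.50 and 0.55 for the 2 higher genes and between -0.58 and -0.48 for the 4 lower ones. In Prlr+/+ mice, Erlin1, Selenon and Tmx1 lost it without NP replicate 2, Calm2, Impa1, Tmco1, Tmx1 and Atp2b2 without NP replicate 3, and Erlin1, Impa1, Selenon, Tmco1 and Tmx1 without P9.5 replicate 1, with values then between 0.48 and 0.58 for the 5 higher genes and between -0.58 and -0.57 for the 2 lower ones.

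The genes with the profile most like Car8 were found by the mean absolute difference of log2 values over the 12 arrays, each gene centred on its own mean, among 19937 other genes. They were Rbmx2, which encodes an RNA-binding protein (0.167), Ivd, an enzyme of leucine breakdown (0.2), Apobec1, an RNA-editing deaminase (0.211), Gadd45a, a growth arrest gene (0.213), and Fgl2, a fibrinogen-like protein gene (0.221). This is a description chosen for likeness, with no test. Without Prlr+/+ P9.5 replicate 2 the order of these 5 changed, with Apobec1 at 0.132, Rbmx2 at 0.165, Ivd at 0.210, Gadd45a at 0.212 and Fgl2 at 0.218. The other genes were not ranked again without this array, so whether these 5 stayed the closest is not known. Over all 12 arrays the next gene was Cntn3, at 0.228. Rbmx2 was at 7.1 to 7.5 in Prlr-/- P9.5, 8.9 in all Prlr+/+ P9.5 arrays, 6.8 to 7.1 in Prlr-/- NP and 6.9 to 7.1 in Prlr+/+ NP islets. Ivd was at 8.5 to 8.6 in Prlr-/- P9.5, 9.9 to 10.1 in Prlr+/+ P9.5, 8.1 to 8.2 in Prlr-/- NP and 8 to 8.5 in Prlr+/+ NP islets. In all 5 genes the Prlr+/+ P9.5 arrays were the highest. The other 8 calcium genes ranked from 11644 (Itpr2) to 19201 (Atp2a3) among the 19937 genes, with mean absolute differences of 0.806 to 0.957. The measure depends on the size of changes, so a gene that hardly changes is also unlike Car8 by it.

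**Figure D4:**
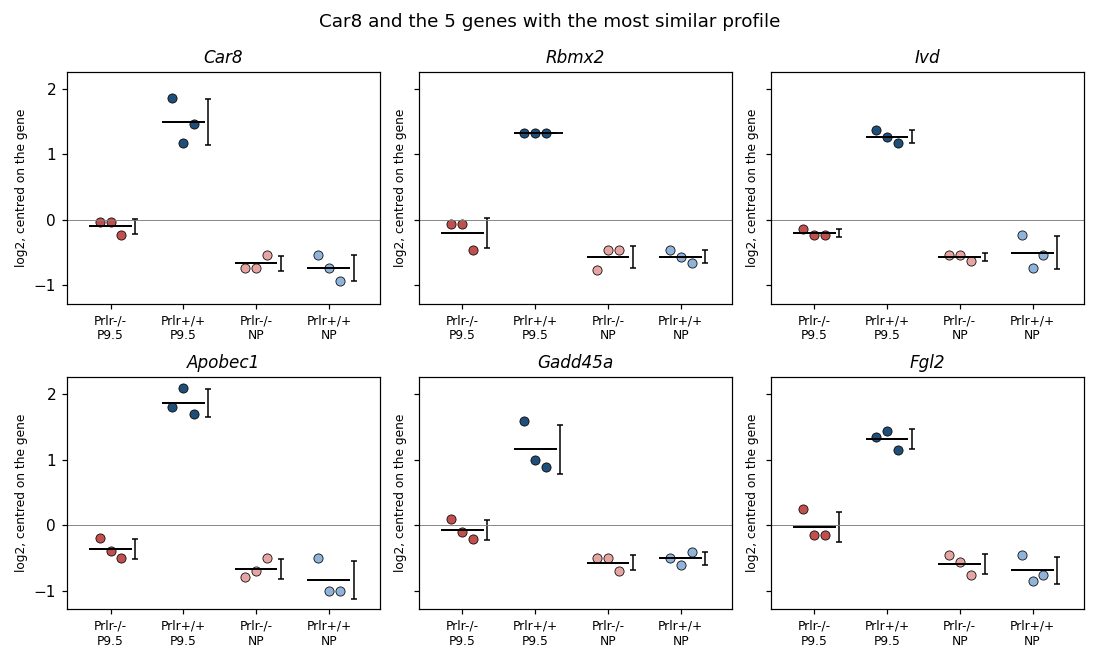
Log2 expression of Car8 and of the 5 genes with the most similar profile, each centred on its own mean over the 12 arrays (y axis), in the 4 groups (x axis). Points are arrays, horizontal lines means and vertical bars the SD (n = 3); in each panel the 3 Prlr+/+ P9.5 arrays lie above all others.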

How the data were processed

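RNA of pancreatic islets from 12 samples was hybridised to Affymetrix MoGene_1.0_ST arrays. The authors preprocessed the arrays with the robust multichip method of aroma.affymetrix to give the deposited log2 values: background correction, quantile normalization and 1 value per probe set. They are rounded to 0.1, so differences under that step cannot be resolved. The genome build of the array annotation is not given in the sources used here, so no coordinates of probe sets are given; those of the promoter windows are from RefSeq (GRCm38.p6). Of 35511 probe sets, 21789 name 1 gene, 1621 several and 12101 none.

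Groups came from the sample labels. In R 4.3.3 with limma 3.58.1, lmFit with 4 group means and eBayes gave 5 contrasts: genotype at each stage, pregnancy in each genotype, and their interaction. Calling was tested on simulated data. The number of arrays limits the precision. Members, lists and named genes were chosen with earlier results of these data known. Named genes are all members, the 5 genes most like Car8, and per list up to 4 called genes or, with none called, that with the largest change. Alternatives were median centring, quantile normalization, a trended robust prior, array weights, other fold change minimums, filters on probe sets, 2-group fits, added noise within the rounding step, a replicate block and leaving out each array. Replicate numbers were not used as pairs.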

Additional observations from a re-analysis of the deposited data

Results flagged for a closer look

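The response of Car8 to pregnancy differed between the genotypes. Its log2 fold change at P9.5 against NP was 0.57 in Prlr-/- mice and 2.23 in Prlr+/+ mice, and the test of the difference itself gave -1.67 (adjusted p = 0.0241, limma, n = 3 arrays per group). In both genotypes all 3 P9.5 arrays were above all 3 NP arrays. This also held for 19.4% of all probe sets in Prlr-/- and 15% in Prlr+/+ mice. The pregnant Prlr-/- mice alone carried a progesterone pellet, so genotype and pellet cannot be told apart.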

How the results depend on the processing

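Of 2017 pairs of a result and an alternative, 1863 were rated the same. For a log2 fold change this meant no change of direction or of side of the threshold. Counts were rated by the ratio of the 2 values, and Car8 minus a receptor by its direction alone. Likeness to Car8 was rated by whether its shift stayed below the SD of Car8 within groups. Some of these pairs had no room to differ in value. Median centring cannot move a difference between genes within an array. Leaving out an array outside the 2 groups compared leaves their log2 fold change as it was. The total rated the same is therefore no measure of robustness. Car8 at P9.5 (Prlr-/- against Prlr+/+) and with pregnancy in Prlr+/+ mice was called under all 23 alternatives, and Atp2a3 with pregnancy in Prlr+/+ mice under 22 of 23 (-0.87 to -0.60), lost at a fold change minimum of 2, which left 1 member called there. Car8 with pregnancy in Prlr-/- mice was called, and then the one member called, after median centring (0.73), with array weights (0.61), and on leaving out replicate 3 of either Prlr-/- group (0.63 each); with arrays left out in turn it ranged from 0.53 to 0.63 and the count of members from 0 to 1. With no fold change minimum Car8 passed there (0.57), and 3 members passed in Prlr-/- and 5 in Prlr+/+ mice. The Car8 interaction ranged from -1.83 to -1.48 with arrays left out, and its call, with the count of members (0 to 1), ended without any 1 of 8 arrays: replicates 1 and 3 of Prlr-/- NP, 2 and 3 of Prlr+/+ NP, all of Prlr-/- P9.5, and 3 of Prlr+/+ P9.5; fewer samples enter each of these fits. The replicate block changed no call of a member (interaction of Car8 -1.67, adjusted p = 0.0374, limma). In 7 of 18 pairs of samples sharing a number, deviations from the group means correlated over 0.1 (all 18 at -0.114 to 0.227). Only 1 array of 12 correlated best with its own number throughout, so the numbers were not taken as pairs.

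Small values changed sign. In NP islets Car8 was -0.033 after median centring and -0.033 to 0.17 with arrays left out, Ryr2 -0.033 after median centring and -0.028 after quantile normalization, and Orai1 -0.033 after median centring. With pregnancy in Prlr-/- mice Itpr3 was 0.033, Atp2a2 0.067 and Stim2 0.13 after median centring, Ryr2 0.0083 after quantile normalization and Itpr2 -0.025 with array weights. The Ryr2 interaction was 0.067 after median centring, 0.083 after quantile normalization and 0.0061 with array weights. With arrays left out in turn, the Ryr2 interaction ranged from -0.12 to 0.067 and Stim2 with pregnancy in Prlr-/- mice from -0.15 to 0.050, and at P9.5 Ryr2 from -0.050 to 0.13, Itpr3 from -0.033 to 0.067 and Stim1 from -0.067 to 0.13. The cause of these changes was not tested.

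The count of probe sets called in the interaction was 28, against 96 among probe sets with 1 gene symbol, 81 with array weights, 63 without the dimmest 40%, 45 after quantile normalization and 16 to 38 with arrays left out. At P9.5 it was 82 (41 at a fold change minimum of 2, 39 in the 2-group fit, 47 to 85 with arrays left out) and in NP islets 36 (2 with 1 gene symbol, 0 in the 2-group fit, 24 to 172 with arrays left out). With pregnancy it was 5159 in Prlr-/- and 3528 in Prlr+/+ mice (2513 and 1898 with 1 gene symbol, 11846 and 7745 with no fold change minimum, 1493 and 998 at a minimum of 2). Median centring raised the share of higher calls to 76.2% in Prlr-/- (51.2% before) and 70.2% in Prlr+/+ mice (57.7%), and lowered it to 69.7% in NP islets (91.7%). Array medians lie on the rounding steps of 0.1, so median centring moved arrays against each other by whole steps. After quantile normalization the share was 54.4% in Prlr-/- mice, 53.8% in Prlr+/+ mice and 86.8% in NP islets. Averaging the probe sets of a gene was not run, since each measured member has 1. Values are rounded to 0.1, and the pregnancy differences of Itpr2 and Ryr2 are at most 2 such steps.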
